A study of Mus musculus with 9 samples.

Results

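The S100A and annexin calcium-binding genes described here were 10 genes of the 11046 in the deposited count table: S100a4, S100a6, S100a10, S100a11 and Anxa1 to Anxa6. They were picked by symbol, with their levels in these 3 lines already known from earlier results of the same libraries. All 10 were in the table and all 10 passed the filter on low counts. How the 11046 genes were selected is not given in the sources used here, and the filter removed only 9 of them. Listed genes that were not measured are absent from this set and may still be expressed. Whether a gene entered the set through a single line is not known. Shares of all genes given below are shares of the genes tested from this set. Because the differences between lines were part of the choice, the members' own differences are given as a description with no p-value, and their calls are counted only beside the share of all genes called. The related genes further below were also listed with earlier results known. Those outside the S100 and annexin families were named for extreme differences, so the adjusted p-values of related genes are descriptive too.

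S100 proteins are small calcium sensors built from EF-hand motifs that expose a binding face when calcium rises, although S100A10 is known for being locked in the open form without calcium. Annexins bind acidic phospholipids of cell membranes in the presence of calcium. The families meet in complexes: S100A10 binds annexin A2 and S100A11 binds annexin A1, and such complexes are known in membrane repair, plasmin generation at the cell surface and vesicle traffic.

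Levels were measured by poly(A)-selected, stranded RNA sequencing in a study that related the electrical effects of brain metastases to their transcriptomes. The 3 mouse tumour lines were all grown in vitro, each labelled genotype WT and each untreated: 482N1, given as lung NSCLC (non-small-cell lung cancer), B16F10-BrM, given as BRAF mutant melanoma, and E0771-BrM, given as triple negative breast cancer. BrM means brain metastatic. Each line had 3 libraries, A to C. Nothing in the labels tells whether separate cultures were used for them, so SDs, SEs and p-values measure the spread between these libraries, which may be technical. The medium was DMEM for 482N1 and B16F10-BrM but RPMI 1640 with added HEPES for E0771-BrM, both with serum, so differences that involve E0771-BrM are also differences of medium, and the line and its medium cannot be told apart there.

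Total counts were 7332390 to 9293348 per library. Levels are normalised CPM, the count scaled to an effective library size from the TMM method, as mean ± SD of 3 libraries. Of 16 melanocyte markers 5 were measured (Tyrp1, Dct, Pmel, Mitf and Gpnmb), and they summed to 24600 to 25500 CPM in B16F10-BrM. The same 5 markers had 216 counts in library A, 23 in B and 222 in C of 482N1, and 856 to 1275 counts in E0771-BrM, so library B of 482N1 stood apart from the other two. Values from library B alone of 482N1 and of E0771-BrM are therefore given for some of the genes and lists where they differ. Other values may also differ with library B alone, and the part of these reads in the results was not tested. Library B of E0771-BrM itself had 856 such counts, so these values are not free of them on the E0771-BrM side. The 3 measured of 13 simple epithelial markers (Krt8, Krt18 and Jup) summed to 7340 to 7970 CPM in 482N1, 182 to 221 in E0771-BrM and 0.583 to 1.51 in B16F10-BrM, where Krt18 had no count. The 4 measured of 13 lung markers (Abca3, Foxa1, Etv5 and Ctsh) summed to 209 to 245 CPM in 482N1, against 34.4 to 38.1 in E0771-BrM and 15.5 to 22.6 in B16F10-BrM. The 4 measured of 13 mammary markers (Gata3, Erbb2, Areg and Foxa1) summed to 50.5 to 66.0 CPM in E0771-BrM, below the 132 to 150 in 482N1 and above the 3.85 to 5.27 in B16F10-BrM, where Areg had no count. The 2 measured of 7 endothelial markers (Flt1 and Egfl7) summed to 90.4 to 104 CPM in 482N1, 35.3 to 37.4 in E0771-BrM and 5.83 to 8.44 in B16F10-BrM.

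The 10 genes lie on 6 chromosomes. All 4 S100 members and Anxa5 are on mouse chromosome 3, Anxa1 on 19, Anxa2 on 9, Anxa3 on 5, Anxa4 on 6 and Anxa6 on 11. Promoter sequences, 250 bases before to 50 after the start of the gene, were matched by symbol for 7 members in RefSeq (build GRCm38.p6). Those of S100a10, Anxa3 and Anxa6 were not among them. Below are the windows of S100a4 and S100a6, which were close to 0 in B16F10-BrM, of S100a11 and Anxa2, which were lower there than in the other lines but well above 0, and of Anxa5, the member with the smallest difference between B16F10-BrM and 482N1. Capitals mark matches on either strand to 4 motifs. The TATA box was searched as TATAAA. The AP-1 motif was searched as TGANTCA. The GC box was searched as GGGCGG, and an E-box form as TCANGTG. No marked match overlaps another.
S100a4: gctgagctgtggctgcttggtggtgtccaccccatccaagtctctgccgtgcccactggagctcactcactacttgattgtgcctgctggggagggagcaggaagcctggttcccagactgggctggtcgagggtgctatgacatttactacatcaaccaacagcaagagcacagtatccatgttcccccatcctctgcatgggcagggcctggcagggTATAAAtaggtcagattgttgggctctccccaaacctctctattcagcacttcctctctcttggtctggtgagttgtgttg
S100a6: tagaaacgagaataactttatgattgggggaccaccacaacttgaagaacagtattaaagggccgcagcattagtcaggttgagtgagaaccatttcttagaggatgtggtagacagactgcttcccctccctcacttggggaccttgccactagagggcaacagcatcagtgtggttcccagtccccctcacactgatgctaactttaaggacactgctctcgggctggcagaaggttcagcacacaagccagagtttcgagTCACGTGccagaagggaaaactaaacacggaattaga
S100a11: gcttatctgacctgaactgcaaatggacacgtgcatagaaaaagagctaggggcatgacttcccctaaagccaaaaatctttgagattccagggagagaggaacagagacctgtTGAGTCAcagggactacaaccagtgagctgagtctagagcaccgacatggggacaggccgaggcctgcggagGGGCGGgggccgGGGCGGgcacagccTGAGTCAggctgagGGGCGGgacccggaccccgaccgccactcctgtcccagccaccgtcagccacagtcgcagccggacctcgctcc
Anxa2: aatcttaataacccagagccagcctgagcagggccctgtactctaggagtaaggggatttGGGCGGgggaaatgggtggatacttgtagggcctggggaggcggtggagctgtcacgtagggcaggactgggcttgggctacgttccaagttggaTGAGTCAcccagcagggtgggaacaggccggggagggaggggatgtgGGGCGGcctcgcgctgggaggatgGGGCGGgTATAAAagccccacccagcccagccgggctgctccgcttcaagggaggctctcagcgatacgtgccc
Anxa5: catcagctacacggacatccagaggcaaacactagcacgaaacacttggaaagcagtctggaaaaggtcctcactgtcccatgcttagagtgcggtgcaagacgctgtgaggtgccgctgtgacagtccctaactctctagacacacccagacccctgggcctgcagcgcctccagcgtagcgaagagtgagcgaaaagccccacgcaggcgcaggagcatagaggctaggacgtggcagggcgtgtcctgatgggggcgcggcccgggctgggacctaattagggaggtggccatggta

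The windows are chr3:90603520-90603819 on the plus strand for S100a4, chr3:90612644-90612943 on the plus strand for S100a6, chr3:93520246-93520545 on the plus strand for S100a11, chr9:69453433-69453732 on the plus strand for Anxa2 and chr3:36475838-36476137 on the minus strand for Anxa5. S100a4 held TATAAA 31 bases before its start and only 2 CpG dinucleotides, fewer than the median of 7 over 32851 windows of this length. S100a6 had 6 CpG, no TATAAA and a single TCANGTG match that begins 13 bases after the start. S100a11 had 15 CpG, 3 GGGCGG matches and TGANTCA matches at -136 and -38. Anxa2 had 13 CpG and was the only window of the 5 with TATAAA (at -17), TGANTCA (at -95) and GGGCGG (3 matches) together. Anxa5 had 16 CpG and none of the 4 motifs. Over all windows TATAAA was found in 13.6%, TGANTCA in 7.81%, GGGCGG in 35.7% and TCANGTG in 14.3%, so each motif occurs in many windows. A match is a description of the sequence and was not tested as a site of binding.

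S100a6, a calcium sensor abundant in many epithelial and fibroblast-like cells, was the most abundant of the 10 in 482N1 per transcript length. Its counts in libraries A, B and C were 106017, 113505 and 108596 in 482N1, against 15, 6 and 11 in B16F10-BrM and 17953, 18216 and 17732 in E0771-BrM. All B16F10-BrM libraries lay far below those of the other lines, and the 3 lines did not overlap. Mean levels were 13700 ± 56.5 CPM in 482N1, 2225 ± 47.9 in E0771-BrM and 1.2 ± 0.411 in B16F10-BrM. S100a6 took 1.22% ± 0.00768 of all counts in 482N1, 0.236% ± 0.00815 in E0771-BrM and 0.000127% in B16F10-BrM. The 10 genes together took 1.73% ± 0.0356 of all counts in 482N1, against 0.0878% ± 0.00314 in B16F10-BrM and 0.459% ± 0.0126 in E0771-BrM. Without S100a6 the order of the lines was the same, at 0.503% ± 0.0314, 0.0877% ± 0.00315 and 0.223% ± 0.00521. The log2 fold change of S100a6 was -13.43 ± 0.13 (SE) for B16F10-BrM against 482N1, a ratio of 11196.5, and -2.62 ± 0.07 for E0771-BrM against 482N1. E0771-BrM was above B16F10-BrM by 10.81 ± 0.12 on the log2 scale. The 3 simple epithelial markers stood in the same order over the lines, at 7340 to 7970 CPM in 482N1, 182 to 221 in E0771-BrM and 0.583 to 1.51 in B16F10-BrM. The measured lung, mammary and endothelial markers given above also stood in this order, so it is not particular to the epithelial list. The part of any of these markers in the result was not tested. In such bulk libraries, fewer cells that express a gene and less RNA of it per cell cannot be told apart.

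S100a4, known in other settings as metastasin and as a binding partner of non-muscle myosin, followed the same order of the lines. It had 2864, 2678 and 2639 counts in libraries A, B and C of 482N1, 1, 3 and 5 in B16F10-BrM, and 330, 363 and 334 in E0771-BrM. Again B16F10-BrM was lowest in every library and E0771-BrM was in between. Means were 342 ± 24.4, 0.354 ± 0.24 and 42.4 ± 1.04 CPM. The 9 counts in B16F10-BrM against 8181 in 482N1 gave a normalised ratio of 993 with a 95% counting interval of 523 to 2170. Against E0771-BrM the ratio was 123 with an interval of 64.6 to 270. Such intervals hold counting error alone, without the spread between libraries. PCR copies of a molecule could not be recognised, so the intervals may be too narrow even for counting error. E0771-BrM was below 482N1 by a log2 fold change of -3.01 ± 0.09.

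S100a10 (p11), the partner of annexin A2, differed least between 482N1 and E0771-BrM among the S100 members. Its counts were 2686, 2797 and 2919 in 482N1, against 664, 502 and 635 in B16F10-BrM and 2235, 2265 and 2195 in E0771-BrM. In CPM, the libraries of 482N1 lay at 337 to 370, just above those of E0771-BrM at 272 to 284, and B16F10-BrM was lower at 63.0 to 74.0. Its log2 fold change was -2.35 ± 0.08 for B16F10-BrM and -0.35 ± 0.07 for E0771-BrM, both against 482N1.

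S100a11, which binds annexin A1, had 8298, 8095 and 7856 counts in 482N1, against 661, 542 and 623 in B16F10-BrM and 3571, 3538 and 3691 in E0771-BrM. The lines did not overlap, with means of 1013 ± 50.4, 69.8 ± 2.44 and 446 ± 18.9 CPM. S100a11 had a log2 fold change of -3.86 ± 0.08 for B16F10-BrM against 482N1, -1.18 ± 0.07 for E0771-BrM against 482N1, and 2.67 ± 0.08 for E0771-BrM against B16F10-BrM. S100a11 has a processed pseudogene in the GENCODE annotation, and how the authors' counting treated reads that match both is not given in the sources used here, so its values are uncertain to that extent.

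**Figure D1:**
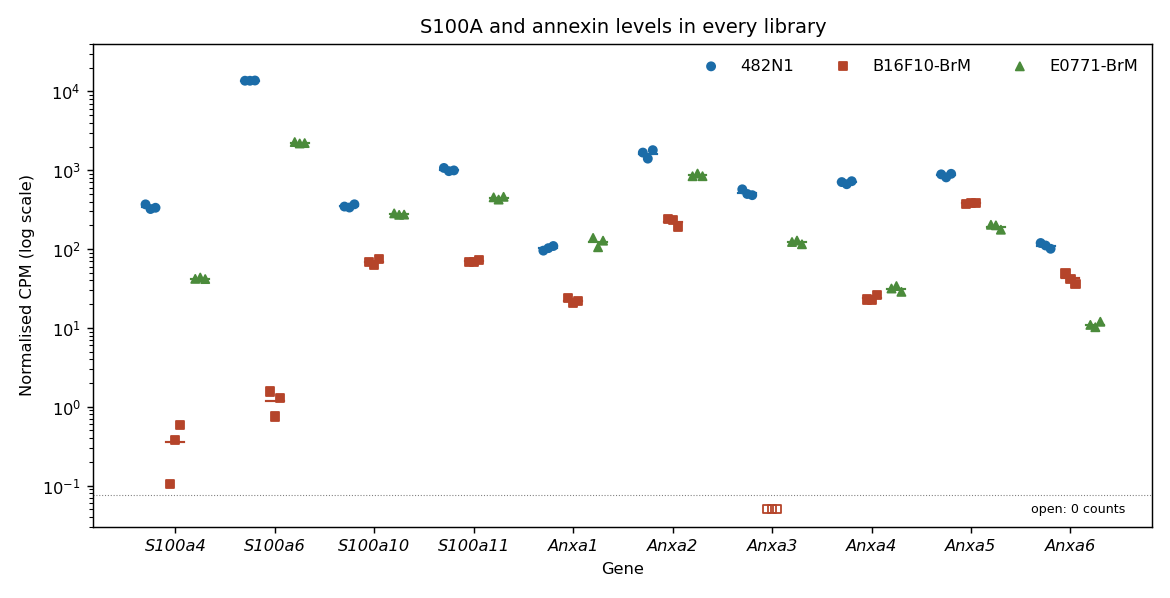
Normalised CPM (log scale) of each of the 10 genes in every library, with a short line at the mean of each cell line; open squares mark 0 counts. S100a6 lies near 13700 CPM in 482N1 and near 1.2 in B16F10-BrM, Anxa3 has no count in B16F10-BrM, and Anxa5 and Anxa6 are the genes with E0771-BrM below B16F10-BrM.

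Among the annexins, Anxa3, a calcium-dependent phospholipid-binding protein, was the member with no count at all in B16F10-BrM. Its counts were 4445, 4155 and 3812 in 482N1, 0 in all 3 libraries of B16F10-BrM, and 969, 1069 and 923 in E0771-BrM. Against a floor of 3 counts over the 3 libraries of B16F10-BrM, its level was at least 4520-fold higher in 482N1 and at least 1070-fold higher in E0771-BrM. E0771-BrM was below 482N1 with a log2 fold change of -2.09 ± 0.08 (means 122 ± 6.63 and 519 ± 47.9 CPM).

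Anxa4, an annexin best known from secretory epithelia, was high only in 482N1 of these 3 lines. Its counts were 5490, 5528 and 5731 in 482N1, against 220, 181 and 223 in B16F10-BrM and 249, 283 and 230 in E0771-BrM. The lowest 482N1 library, at 665 CPM, was far above every library of the other lines, which lay at 22.7 to 34 CPM. Against 482N1 it differed by a log2 fold change of -4.87 ± 0.09 in B16F10-BrM and -4.48 ± 0.09 in E0771-BrM. The other lines differed from each other by 0.40 ± 0.10 on the same scale, higher in E0771-BrM.

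Anxa2, the annexin that carries S100A10 at the plasma membrane and is known as a cell surface site for plasminogen activation, was the most abundant of the 6 annexins per transcript length in 482N1 and E0771-BrM. It had 12994, 11673 and 14195 counts in 482N1, against 2332, 1888 and 1618 in B16F10-BrM and 6614, 7564 and 6740 in E0771-BrM. The order of the lines was that of S100a6, with means of 1627 ± 202, 223 ± 29.8 and 862 ± 39.1 CPM and no overlap. The log2 fold change was -2.87 ± 0.09 for B16F10-BrM and -0.92 ± 0.09 for E0771-BrM against 482N1. With library B alone of 482N1 and of E0771-BrM, the latter was -0.63.

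Anxa1, a glucocorticoid-induced protein that acts on formyl peptide receptors outside the cell, was the member for which E0771-BrM reached 482N1. Its counts were 741, 854 and 863 in 482N1, against 227, 164 and 188 in B16F10-BrM and 1092, 879 and 1025 in E0771-BrM. In CPM, E0771-BrM libraries at 139, 105 and 128 overlapped 482N1 libraries at 95.6, 103 and 109, whereas B16F10-BrM lay at 20.6 to 23.6. The log2 fold change of E0771-BrM against 482N1 was 0.27 ± 0.09, and 0.04 with library B alone of both lines. B16F10-BrM was below 482N1 by -2.21 ± 0.10 on the log2 scale.

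Anxa5 and Anxa6 differed from the other 8 in the order of the lines, with E0771-BrM and not B16F10-BrM lowest. Anxa5, whose protein binds exposed phosphatidylserine and serves as a probe of dying cells, had 6882, 6747 and 7111 counts in 482N1, against 3536, 3098 and 3258 in B16F10-BrM and 1601, 1667 and 1412 in E0771-BrM. Its means were 867 ± 48.1, 379 ± 10.2 and 193 ± 14.8 CPM, and no libraries overlapped. Anxa6, an annexin with a duplicated core that has been tied to cholesterol-rich membranes, had 926, 923 and 796 counts in 482N1, against 471, 334 and 311 in B16F10-BrM and 86, 85 and 96 in E0771-BrM. E0771-BrM thus had the lowest Anxa6 in every library, at 10.2 to 12.0 CPM against 36.2 to 49.1 in B16F10-BrM. The log2 fold change of E0771-BrM against B16F10-BrM was -0.97 ± 0.07 for Anxa5 and -1.95 ± 0.13 for Anxa6. Against 482N1, B16F10-BrM differed by -1.19 ± 0.07 for Anxa5 and by -1.38 ± 0.10 for Anxa6, the smallest differences among the 10 genes in that comparison.

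**Figure D2:**
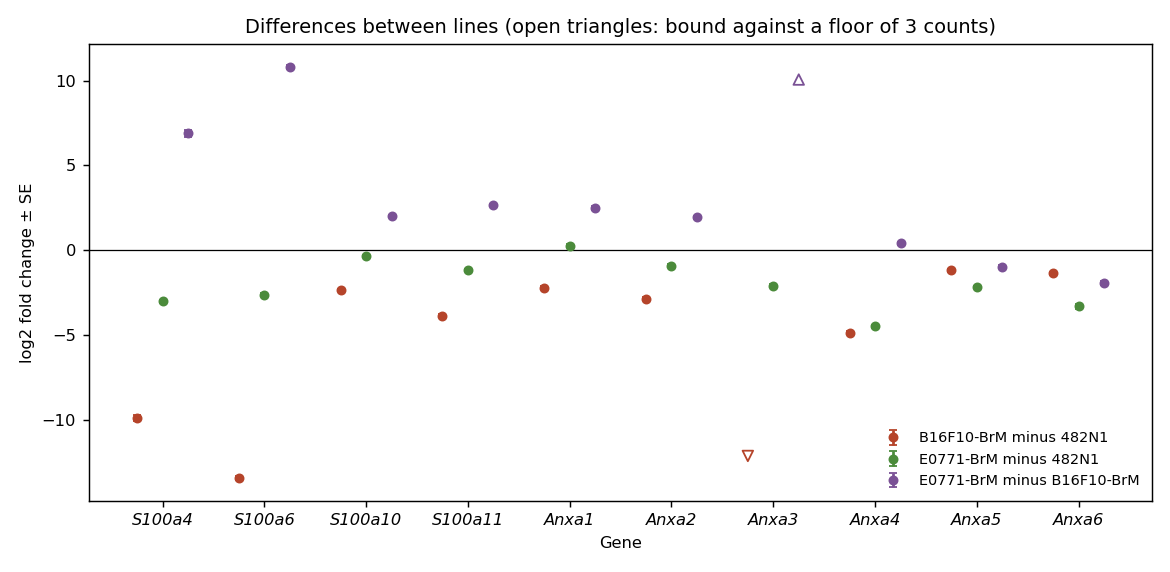
Log2 fold change ± SE of each gene for the 3 pairs of lines; most error bars are smaller than the points, and open triangles mark Anxa3 at its bound against a floor of 3 counts. All B16F10-BrM minus 482N1 values lie below 0, and E0771-BrM minus B16F10-BrM is below 0 for Anxa5 and Anxa6 only.

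Counted by edgeR's quasi-likelihood test over all 11037 genes, at an adjusted p below 0.05, 10 of the 10 members were lower and 0 higher in B16F10-BrM than in 482N1, where 39.9% of all genes were called lower and 38.0% higher. The libraries of these lines did not overlap for 10 of 10 members and for 78.7% of all genes. For E0771-BrM against 482N1, 9 members were lower and 1, Anxa1, higher, beside 40.4% and 37.7% of all genes, and 9 of 10 did not overlap, beside 78.5%. For E0771-BrM against B16F10-BrM, 8 members were higher and 2 lower, beside 37.2% and 36.5%, and 10 of 10 did not overlap, beside 75.5%. Since these contrasts entered the choice of the genes, nothing is read from the counts. The call of Anxa1 for E0771-BrM against 482N1 was lost without library A of E0771-BrM and with library B alone of both lines. The median log2 fold change of the members was -3.36, -2.13 and 2.25 in these comparisons, in the order given, while that of all genes was -0.04, -0.04 and 0.02. For the 4 S100 members the medians were -6.88, -1.90 and 4.78, and for the 6 annexins -2.54, -2.13 and 1.18. With Anxa3 at its bound in place of its fitted value, the medians of the 10 members were the same. The comparisons share libraries, each line being used in a pair of them, so their values are not independent of each other.

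To set levels of different genes side by side, they were also expressed per length, as CPM per kilobase of the longest principal transcript in GENCODE vM21. On this scale the order in 482N1 was S100a6 at 18741, S100a11 at 1983, Anxa2 at 1124, S100a4 at 687, S100a10 at 512, Anxa5 at 501, Anxa4 at 345, Anxa3 at 325, Anxa1 at 61.3 and Anxa6 at 44.4 CPM per kilobase. Only the neighbours S100a10 and Anxa5, and Anxa4 and Anxa3, overlapped between libraries. In B16F10-BrM the order was led by Anxa5 at 219, followed by Anxa2 at 154 and S100a11 at 137, which overlapped, and S100a10 at 100.3. The other members there were Anxa6 at 17.0, Anxa1 at 13.2 and Anxa4 at 11.8, the latter pair overlapping, then S100a6 at 1.64 and S100a4 at 0.712, which overlapped, and Anxa3 at 0. S100a6 was thus the highest of the 10 in 482N1 and near the lowest in B16F10-BrM, whereas Anxa5 was the most abundant per length in B16F10-BrM. In E0771-BrM the order opened as in 482N1, with S100a6 at 3044, S100a11 at 873 and Anxa2 at 596. There followed S100a10 at 403, Anxa5 at 112, S100a4 at 85.1, Anxa3 at 76.6 and Anxa1 at 74.0, the last pair overlapping, and then Anxa4 at 15.5 and Anxa6 at 4.43.

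Ratios between members within a library do not depend on how libraries were scaled. The pairs shown were chosen after the values were seen, from partners known to bind each other and from annexins that moved apart, and they carry no test. Transcripts of S100a10 per transcript of Anxa2, the subunits of a complex, were 0.437, 0.506 and 0.434 in libraries A, B and C of 482N1, 0.601, 0.562 and 0.829 in B16F10-BrM, and 0.714, 0.633 and 0.688 in E0771-BrM, per kilobase. The highest mean, 0.678 ± 0.0415 in E0771-BrM, and the lowest, 0.459 ± 0.0408 in 482N1, differed by a smaller factor than those of any other of the 7 pairs computed, although both genes were several-fold lower in B16F10-BrM than in 482N1. The pair S100a10 to Anxa1 was not among the 7, and S100a10 was nearer in pattern to Anxa1 than to Anxa2, as given below. The ratio of S100a11 to its partner Anxa1 was 32.5 ± 3.66 in 482N1, against 10.4 ± 0.752 in B16F10-BrM and 11.9 ± 1.24 in E0771-BrM. The ratio of S100a6 to Anxa2, another reported pair, was 16.8 ± 2.14 in 482N1, 5.12 ± 0.313 in E0771-BrM and 0.0108 ± 0.00395 in B16F10-BrM. Between annexins, Anxa2 to Anxa5 was above 1 in 482N1 at 2.24 ± 0.16 and in E0771-BrM at 5.36 ± 0.389, and below 1 in B16F10-BrM at 0.704 ± 0.0998. Anxa4 to Anxa5 was 0.689 ± 0.00929 in 482N1, 0.139 ± 0.00607 in E0771-BrM and 0.0537 ± 0.00431 in B16F10-BrM.

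**Figure D3:**
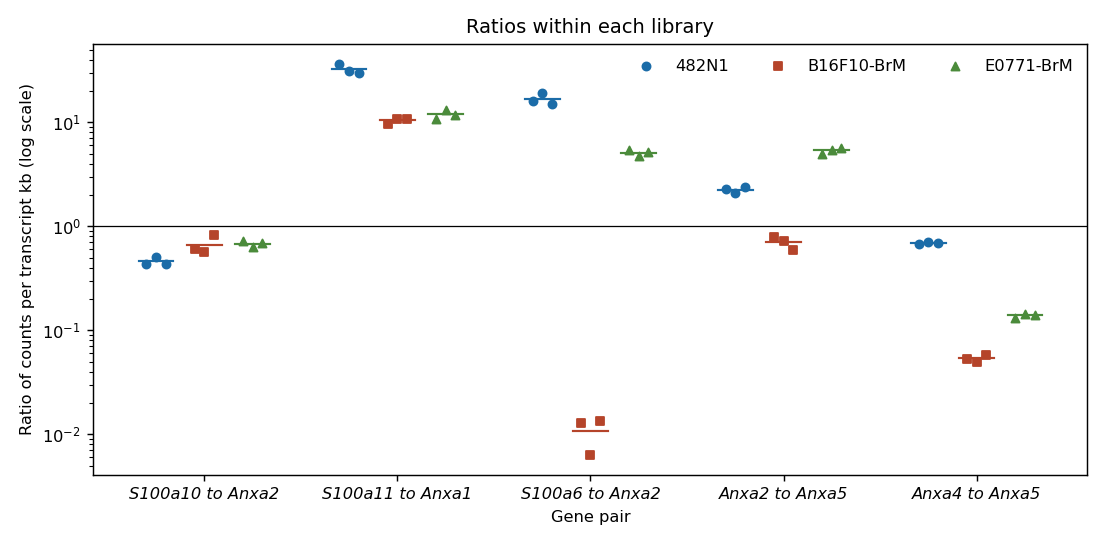
Ratio of counts per transcript kilobase (log scale) for 5 pairs of members in each of the 9 libraries, with a short line at the mean of each cell line and a horizontal line at 1. S100a10 to Anxa2 stays between 0.434 and 0.829 in all libraries, whereas the line means of S100a6 to Anxa2 run from 16.8 in 482N1 to 0.0108 in B16F10-BrM.

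The genes whose pattern over the 9 libraries was most like that of each member were found by the root mean square difference of log2 CPM after centring each gene on its own mean. With 3 lines, such likeness reflects mostly the 3 line means. For S100a6 the nearest were Krt8, Wfdc2 and Anxa3, at 0.799, 0.808 and 0.960 log2 units, and for Anxa3 they were Wfdc2, Mndal and Cdh13, at 0.255 or more. For S100a4 the nearest were Itga3, Spp1 and Krt20, at 0.390 to 0.450. These 3 members, close to or at 0 in B16F10-BrM, were the ones with the most distant nearest gene. S100a10 was nearest to Rhob at 0.0735, then Fau and Pim1. S100a11 was nearest to Phyh at 0.108, then Hspa4l and Gadd45g. Anxa1 was nearest to Steap2 at 0.134, then Fggy and Tsc22d3, and Anxa2 to Prdx5 at 0.121, then Hsd17b10 and Tbc1d12. Anxa4 was nearest to Rnf113a2 at 0.191, then Rps13-ps1 and H1f10, where the first and last of these have low counts. Anxa5 was nearest to Dbn1 at 0.0849, then Npc2 and Isca2, and Anxa6 to Nedd4 at 0.214, then Gstm1 and Cisd3. Among the members themselves the closest pair was S100a10 with Anxa1 at 0.279, and S100a10 with Anxa2 followed at 0.301. Anxa5 and Anxa6 were each other's nearest member at 0.522.

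Of 13 other S100 genes 5 were measured, and all 5 were lower in both other lines than in 482N1, where 39.9% of all genes were called lower in B16F10-BrM and 40.4% in E0771-BrM. S100a13, a sensor linked to the export of fibroblast growth factor, was at 287 ± 8.95 CPM in 482N1, against 22.1 ± 2.88 in B16F10-BrM and 123 ± 5.76 in E0771-BrM. Its log2 fold change was -3.70 ± 0.09 for B16F10-BrM (edgeR adjusted p = 6.36e-36) and -1.22 ± 0.08 for E0771-BrM (adjusted p = 3.06e-19). S100a16 was at 165 ± 4.55, 4.67 ± 0.79 and 8.41 ± 0.397 CPM, with -5.13 ± 0.12 (adjusted p = 1.20e-36) and -4.29 ± 0.11 (adjusted p = 1.32e-34). S100a1, best known from muscle, was the S100 gene with E0771-BrM below B16F10-BrM, at 381 ± 26.1, 63.7 ± 11.7 and 27.9 ± 1.89 CPM. For it the difference of E0771-BrM from B16F10-BrM was -1.19 ± 0.11 (adjusted p = 9.84e-13). S100a1 and S100a13 overlap on opposite strands in RefSeq and the strand setting of the counting is not stated, so reads of the pair may not be told apart. The other genes of the list, S100a3 and S100a7a, were low. S100a3 had 265 counts over 482N1, 1 over B16F10-BrM and 64 over E0771-BrM, a ratio of 289 between 482N1 and B16F10-BrM with a 95% counting interval of 51.5 to 11500. S100a3 and S100a4 are tagged as overlapping loci in GENCODE, which makes the low S100a3 counts uncertain. S100a7a had 137, 15 and 50 counts, a ratio of 9.97 between 482N1 and B16F10-BrM with a counting interval of 5.84 to 18.3, and its log2 fold change was -3.28 ± 0.38 for B16F10-BrM (adjusted p = 8.88e-11) and -1.46 ± 0.30 for E0771-BrM (adjusted p = 2.93e-05). In E0771-BrM against B16F10-BrM, 4 of the 5 were higher and S100a1 lower, beside 37.2% and 36.5% of all genes. The median log2 fold change of the 5 was -3.70 for B16F10-BrM and -2.06 for E0771-BrM against 482N1.

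Of 6 other annexins 3 were measured, and the order of the lines differed among them. In B16F10-BrM 2 were lower and 0 higher than in 482N1, beside 39.9% and 38.0% of all genes. In E0771-BrM 2 were lower and 1 higher than in 482N1, beside 40.4% and 37.7%, and 2 were higher and 1 lower than in B16F10-BrM, beside 37.2% and 36.5%. Anxa7, the annexin also called synexin, was at 72.0 ± 5.10 CPM in 482N1, against 14.5 ± 1.41 in B16F10-BrM and 48.8 ± 3.81 in E0771-BrM, with a log2 fold change of -2.32 ± 0.11 for B16F10-BrM against 482N1 (edgeR adjusted p = 9.94e-24). Anxa11, which links RNA granules to lysosomes, was highest in E0771-BrM at 80.7 ± 2.73 CPM, against 35.5 ± 1.96 in 482N1 and 29.4 ± 2.30 in B16F10-BrM. Its rise in E0771-BrM over 482N1 was 1.18 ± 0.10 (adjusted p = 4.13e-15). The small difference of B16F10-BrM from 482N1, -0.28 ± 0.11 (adjusted p = 0.0162), lost its call without library B of 482N1 (adjusted p = 0.0688), without library C of B16F10-BrM (adjusted p = 0.0788) and with upper-quartile scaling (adjusted p = 0.0592). Over all alternatives the adjusted p of this difference of Anxa11 ran from 0.0111 to 0.0788. Anxa9 was low in all lines at 5.49 ± 0.884, 6.45 ± 0.471 and 3.30 ± 0.327 CPM. For Anxa9 the difference of B16F10-BrM from 482N1 was 0.24 ± 0.23 (adjusted p = 0.337). E0771-BrM was lower than 482N1 by -0.73 ± 0.25 (adjusted p = 0.00837), a call lost with library B alone of both lines (adjusted p = 0.441) and kept otherwise, with adjusted p from 0.00532 to 0.0483.

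The S100 members lie in a block of chromosome 3 that holds 70 protein-coding genes from S100a1 to S100a10 in RefSeq order, of which 10 were in the table. Looking along this block was decided after the values were seen. The 6 measured genes of the block that are not members are the other S100 genes already described, S100a1, S100a13, S100a16, S100a3 and S100a7a, with Sprr1a. All 6 were called lower than in 482N1 in B16F10-BrM, and all 6 in E0771-BrM. Their median log2 fold changes were -4.41 and -2.92. Sprr1a, a precursor of the cornified envelope of squamous epithelia, was at 189 ± 13.5 CPM in 482N1 and 10.4 ± 0.984 in E0771-BrM and had no count in B16F10-BrM, and 482N1 exceeded that line at least 1640-fold. Of the 12 measured genes next to the block, 6 on each side, 7 were called lower and 2 higher in B16F10-BrM than in 482N1. In E0771-BrM 8 were called lower and 2 higher than in 482N1. Among all genes 39.9% were called lower and 38.0% higher in B16F10-BrM, and 40.4% and 37.7% in E0771-BrM. The medians of the 12 neighbours were -0.54 and -0.51, nearer to 0 than those of the 6 block genes, and nothing is read from the counts. A large difference between lines also occurred outside the block, where Tdrkh had 285 counts over 482N1, 566 over B16F10-BrM and 1 over E0771-BrM. No test was made of the block against its neighbours.

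**Figure D4:**
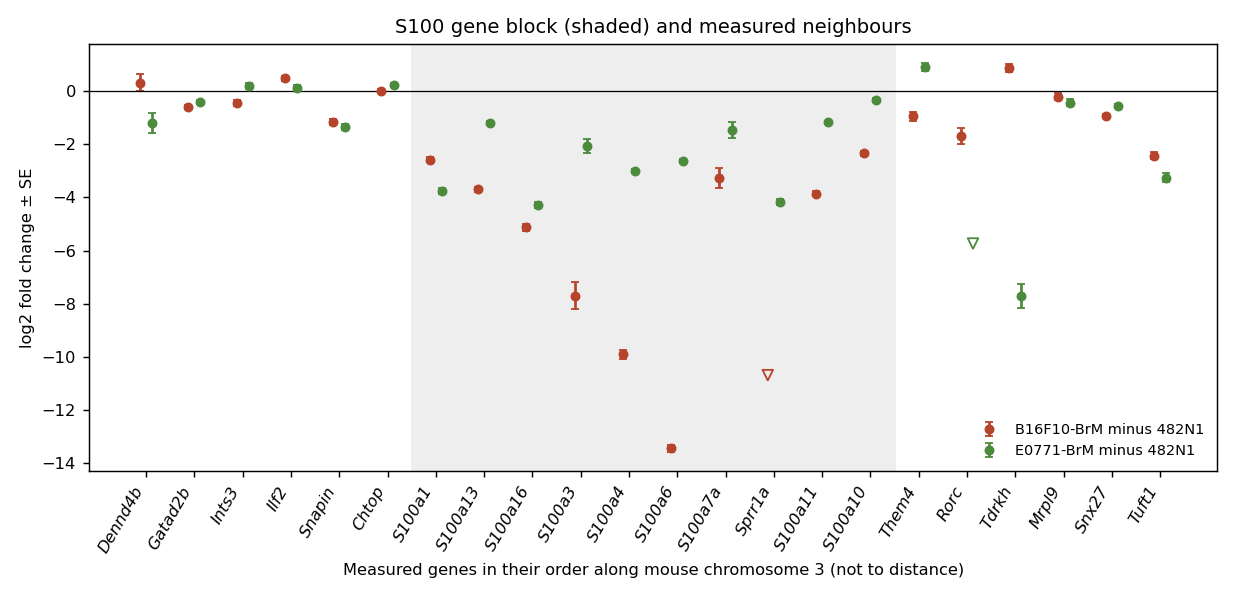
Log2 fold change ± SE against 482N1 of the 10 measured genes of the S100 block (shaded) and 6 measured genes on each side, in their order along mouse chromosome 3, not to distance; open triangles are bounds against a floor of 3 counts for genes with no count in a line. Every gene in the shaded block lies below 0 in both comparisons, S100a10 at -2.35 and -0.35 and S100a6 at -13.43 and -2.62 among them, and the flanking genes lie on both sides of 0.

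Of 32 genes known as partners of S100 proteins or annexins 18 were measured: 6 were higher and 9 lower in B16F10-BrM than in 482N1, 8 higher and 9 lower in E0771-BrM, and 10 higher and 3 lower in E0771-BrM than in B16F10-BrM. Among all genes 38.0% were called higher and 39.9% lower in the first comparison, 37.7% and 40.4% in the second, and 37.2% and 36.5% in the third. The medians of the partner genes stayed within 0.4 of 0 on the log2 scale, at -0.21, -0.36 and 0.33. Ahnak, a giant scaffold protein that binds the S100A10 and annexin A2 complex, was at 599.7 ± 70.2 CPM in 482N1, against 8.68 ± 1.99 in B16F10-BrM and 247 ± 5.59 in E0771-BrM. Its log2 fold change for B16F10-BrM against 482N1 was -6.12 ± 0.11 (edgeR adjusted p = 5.60e-38). Ahnak2, its paralogue, was instead highest in B16F10-BrM, at 149.7 ± 16.1 CPM against 88.4 ± 4.66 in 482N1 and 47.1 ± 5.38 in E0771-BrM, with -1.67 ± 0.09 for E0771-BrM against B16F10-BrM (adjusted p = 1.20e-21). Dlc1, a GTPase-activating protein that binds S100A10, was low in 482N1 at 1.31 ± 0.686 CPM and at 29.9 ± 3.30 in B16F10-BrM and 26.5 ± 4.19 in E0771-BrM. Its log2 fold changes against 482N1 were 4.52 ± 0.22 (adjusted p = 2.25e-23) and 4.34 ± 0.23 (adjusted p = 2.70e-22). Dlc1 had 31 counts over 482N1, so these SEs may be below counting error. Plaur, the urokinase receptor, was at 56.8 ± 5.81 CPM in 482N1, against 1.63 ± 0.828 in B16F10-BrM and 11 ± 0.757 in E0771-BrM, with -2.37 ± 0.14 for E0771-BrM against 482N1 (adjusted p = 1.55e-20). Plau, urokinase itself, was at 25.5 ± 0.799 CPM in E0771-BrM and had 37 counts over 482N1 and 17 over B16F10-BrM. E0771-BrM exceeded B16F10-BrM for Plau by 5.26 ± 0.27 (adjusted p = 3.95e-23), a ratio of 39.3 with a counting interval of 24.3 to 67.9.

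Of 30 genes of membrane repair and calcium-dependent membrane binding outside the annexins 19 were measured. In B16F10-BrM 17 of them were lower and 1 higher than in 482N1, with a median log2 fold change of -1.42. In E0771-BrM 12 were lower and 3 higher than in 482N1, with a median of -0.54, and 14 were higher and 3 lower than in B16F10-BrM, with a median of 1.27. Of the 3 higher calls against 482N1, 1 was left without library B of 482N1, without library A or without library B of E0771-BrM, and 0 with library B alone of both lines. Of all genes, 39.9% were called lower and 38.0% higher in B16F10-BrM than in 482N1, 40.4% lower and 37.7% higher in E0771-BrM than in 482N1, and 37.2% higher and 36.5% lower in E0771-BrM than in B16F10-BrM. No set test was made. Capn1, a calpain protease that acts in repair, was at 37.3 ± 3.64 CPM in 482N1, against 2.60 ± 0.157 in B16F10-BrM and 55.1 ± 8.15 in E0771-BrM, with 0.56 ± 0.11 for E0771-BrM against 482N1 (edgeR adjusted p = 1.90e-05). With library B alone of both lines, the difference of Capn1 was 0.29 (adjusted p = 0.211), and in the other alternatives its adjusted p ran from 1.59e-06 to 0.000586. Fer1l6, a ferlin, had 390 counts over 482N1, 1 over B16F10-BrM and 62 over E0771-BrM, with -2.66 ± 0.24 for E0771-BrM against 482N1 (adjusted p = 4.25e-14). Syt7, a synaptotagmin of lysosome exocytosis, had 218 counts over 482N1, 1 over B16F10-BrM and 293 over E0771-BrM. The gene higher in B16F10-BrM was Cpne8, a copine, at 118 ± 11.1 CPM against 29.8 ± 4.86 in 482N1 and 19 ± 3.61 in E0771-BrM. Its log2 fold change was 1.98 ± 0.11 for B16F10-BrM against 482N1 (adjusted p = 3.95e-19).

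Of 38 other EF-hand calcium sensors and buffers 27 were measured: 5 were higher and 16 lower in B16F10-BrM than in 482N1, 14 higher and 10 lower in E0771-BrM than in 482N1, and 16 higher and 4 lower in E0771-BrM than in B16F10-BrM. The shares of all genes called higher and lower were 38.0% and 39.9%, 37.7% and 40.4%, and 37.2% and 36.5% in these comparisons, and nothing is read from the list's counts. The medians were -0.37, 0.18 and 0.46, and the 14 higher in E0771-BrM than in 482N1 were 9 with library B alone of both lines. Rcn1, a calcium-binding protein of the endoplasmic reticulum, was low in 482N1 at 1.25 ± 0.248 CPM and at 56.0 ± 5.76 in B16F10-BrM and 77.3 ± 5.49 in E0771-BrM, with 5.47 ± 0.18 for B16F10-BrM against 482N1 (edgeR adjusted p = 5.25e-31). Hpcal1, a neuronal calcium sensor family gene, was at 165 ± 11.3 CPM in 482N1 and 16.9 ± 1.72 in B16F10-BrM, with a log2 fold change of -3.30 ± 0.11 (adjusted p = 2.10e-31), and had 1 count over E0771-BrM. Lcp1, an actin-bundling plastin best known from leukocytes, was at 310 ± 11.3 CPM in E0771-BrM and near 1 in the other lines, at 1.21 ± 0.0748 in 482N1 and 1.41 ± 0.587 in B16F10-BrM. E0771-BrM exceeded 482N1 for Lcp1 by 7.98 ± 0.15 (adjusted p = 2.78e-41). Over 482N1 there were 29 counts of Lcp1 and 30 of Rcn1, so the SEs of their large differences from 482N1 may be below counting error. The 2 measured of 9 myeloid markers, Cd14 and Cd68, summed to 21.9 to 27.3 CPM in E0771-BrM, 24.7 to 34.2 in 482N1 and 0.502 to 0.625 in B16F10-BrM. The source of the Lcp1 reads was not tested.

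**Figure D5:**
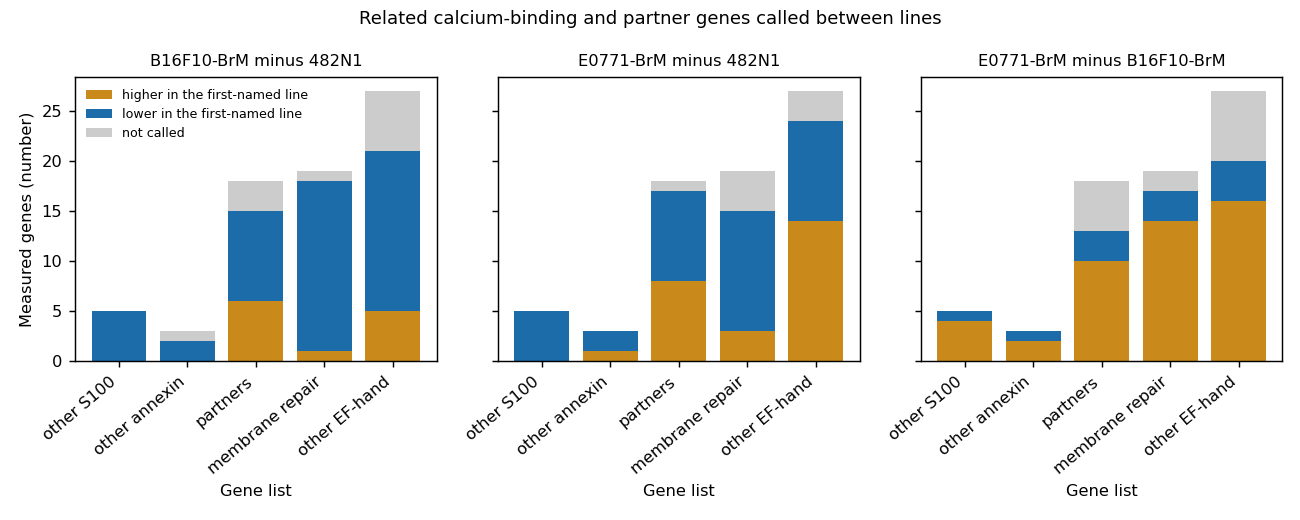
Number of measured genes of 5 related lists that were called higher (orange), called lower (blue) or not called (grey) in the first-named line of each comparison, by edgeR at an adjusted p below 0.05 over all genes. The 5 other S100 genes are all lower against 482N1 in both comparisons, 17 of 19 membrane repair genes are lower in B16F10-BrM, and 6 of 18 partner genes are higher and 9 lower there.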

How the data were processed

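Poly(A)-selected, stranded (TruSeq) libraries were made from cultured 482N1, B16F10-BrM and E0771-BrM cells, 3 per line. The deposited file holds raw counts per gene symbol, whole numbers made by the authors, for 11046 genes. The way these genes were selected is not given in the sources used here. Per the submitters' processing notes, the tools were TopHat2 2.0.10, Cufflinks 2.2.1, Bowtie 1.0.0, SAMtools 0.1.19 and FastQC, with mouse build GRCm39. The counting tool, annotation and strand setting are not given in the sources used here, so reads of overlapping genes or of pseudogenes may be shared.

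Tests used edgeR 4.0.16 under R 4.3.3: filterByExpr (9 genes removed, 11037 tested), TMM scaling and robust quasi-likelihood F tests, 2-sided, with 1 coefficient per line over all 9 libraries, with Benjamini-Hochberg adjustment per comparison at 0.05. The common dispersion was 0.0059. SEs of log2 fold changes were derived from the F statistic, as the size of the log2 fold change over the square root of F. They can be too small for large differences with few counts in a line. The procedure was tested on simulated data. The 10 members and the related lists were chosen with earlier results of these data known. Named genes were all members, all measured S100 genes and annexins, the called genes with the highest and lowest log2 fold change per other list and comparison among those with a mean of at least 10 CPM in a line, and the 3 genes nearest in pattern to each member (log2 CPM with a prior count of 2). Tdrkh and Sprr1a were named after their values were seen. Genes with no count in a line have bounds against 3 counts over its libraries. Ratios given for genes with few counts in a line have 95% counting intervals, without library spread, except that of S100a6. These limits follow from library totals of 7332390 to 9293348 counts.

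Transcript lengths came from GENCODE vM21, and gene order and promoters from RefSeq (GRCm38.p6, 32851 windows), neither of the build used by the authors. Alternatives were other scalings, other filters, DESeq2 1.42.0, limma-voom (limma 3.58.1), the library letter as a block, only the lines compared, each library left out, library B alone of 482N1 and E0771-BrM, and removal of 3 ribosomal RNA genes.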

Additional observations from a re-analysis of the deposited data

How the results depend on the processing

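Every member kept the sign of its log2 fold change in all 3 comparisons under every alternative run. Of 570 member values recomputed, 12 moved by more than their replicate spread and 0 changed sign. Anxa3 differed most, since its fitted values against B16F10-BrM, where it had no count, depend on the tool, and the report gives bounds for it. With library B alone of 482N1 and E0771-BrM, a fit that takes the spread of the single libraries from B16F10-BrM, the median of the members for E0771-BrM minus 482N1 was -1.99, against -2.13 in the full fit. The count of other annexin genes called for B16F10-BrM minus 482N1 was 1 under upper-quartile factors, against 2 in the full fit, and ranged from 1 to 2 when each library was left out. It was 1 without library B of 482N1 and without library C of B16F10-BrM, and in each case the call lost was that of Anxa11. Of 456 counts and medians recomputed, 4 moved in all. A count was marked as moved only when its total changed by more than a set factor. Smaller changes of a total, and changes in how its calls split into higher and lower, are therefore not among the 4. The median of all genes shifted by at most 0.0599 on the log2 scale. Under the replicate block, with the library letter as a term, 8595, 8623 and 8162 of all genes were called, against 8592, 8622 and 8131 without it, and 10 of 10 members in each comparison either way. Deviations of same-letter libraries correlated at -0.00992 to 0.0899, under 0.1 for every pair. Pairs of different letters were not computed beside them, so whether libraries of a letter share a batch was not tested. Depth limits what can be said of S100a3, S100a4, S100a6, S100a7a, Anxa3, Sprr1a, Fer1l6, Syt7 and Plau in B16F10-BrM, where they had 32 counts or fewer over 3 libraries. The same limit holds for Hpcal1 and Tdrkh in E0771-BrM, with 1 count each. It holds too for Lcp1, Rcn1 and Dlc1 in 482N1, with 29, 30 and 31 counts.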
